A study of Mus musculus with 4 samples.

Results

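The endothelial and hemangioblast genes are 10 genes of the vascular and early blood lineages, Kdr, Flt1, Tek, Pecam1, Cdh5, Etv2, Tal1, Lmo2, Erg and Fli1. They were chosen by name, with earlier results of these data known. A gene was taken to have a Zeb1 peak when the deposited list named it as the gene of at least 1 peak. In all, 9 of the 10 genes had a Zeb1 peak and Pecam1 had none, beside 53.3% of the 21000 protein-coding genes with a curated RefSeq transcript (11190 genes). The 9 genes held 13 of the 17435 peaks of the list.

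Zeb1, a zinc finger transcription factor best known as a repressor, was mapped by ChIP-seq in mouse embryonic stem cells (mESC) of the established D3 line. The cells were kept in GS, a ground state medium without serum holding 1 μM PD0325901 (MEK inhibitor), 3 μM CHIR99021 (GSK-3 inhibitor) and 20 ng per mL of LIF. Chromatin fixed with 1% formaldehyde was sheared to fragments near 200 bp. There were 3 Zeb1 ChIP libraries, each made with 8 μg of the anti-Zeb1 antibody H-102, and 1 input library, made with none. All libraries came from undifferentiated cells, so the list describes where Zeb1 was found in mESC and holds no differentiated endothelial or blood cells. Expression was not measured in these files, so the cell type was not checked on marker genes. For each peak the list gives the mean Zeb1 ChIP reads, the mean input reads and the mean enrichment over input, with no value for the separate libraries. The authors describe these values as averages over the samples. Of the 13 peaks described here, 3 have read means that are fractions by 5 and 3 have fractions by 7. A mean over 3 libraries alone does not give these. How the reads were averaged is therefore not fully known, and read numbers are given as deposited. The spread between the 3 libraries could therefore not be measured, the number of aligned reads behind each library is not in the list, and differences between peaks are described without SD and without a test.

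Endothelial cells line the blood vessels, and in the embryo they arise from mesoderm, in part through the hemangioblast, a progenitor that can also give rise to blood. Etv2, a transcription factor of the ETS family, acts at the top of this program, and Tal1 and Lmo2 act in 1 complex to open the blood branch. The VEGF receptors carry the signal that calls these progenitors forward, and Pecam1 and Cdh5 hold the finished vessel wall together.

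Of the 13 peaks, 7 (53.8%) were centred within 5 kb of the listed transcription start site (TSS), as were 61.4% of all peaks. Such a peak was present in 6 of the 10 genes, Kdr, Flt1, Etv2, Tal1, Lmo2 and Fli1, beside 45.1% of protein-coding genes. A peak overlapped the promoter window, from 250 bases before to 50 bases after a curated TSS, in 5 genes, Kdr, Flt1, Tal1, Lmo2 and Fli1, beside 47.9% of all. The genes with 2 or more peaks were Kdr, Flt1 and Tal1, 3 of the 10, beside 14.1%. A peak of any assignment overlapped the gene itself in 9 of the 10, all but Pecam1, beside 54.4%. An enrichment of 10 or more was reached by the best peak of 2 genes, Flt1 and Fli1, beside 9.95%. With 10 genes chosen by hand, these counts are a description and were not tested.

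The enrichment of the 13 peaks ranged from 2.15 at Tek to 13.7 at Fli1, with a median of 7.5, and the median over all peaks of the list was 6.5. The 7 peaks within 5 kb of the TSS had a median enrichment of 8.74, beside 6.74 for all 10698 such peaks, and the 6 peaks farther away had 6.68, beside 6 for all 6737 such peaks. The map of the 10 genes shows where each peak lies, and the plot of enrichment by gene sets them beside the whole list.

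**Figure D1:**
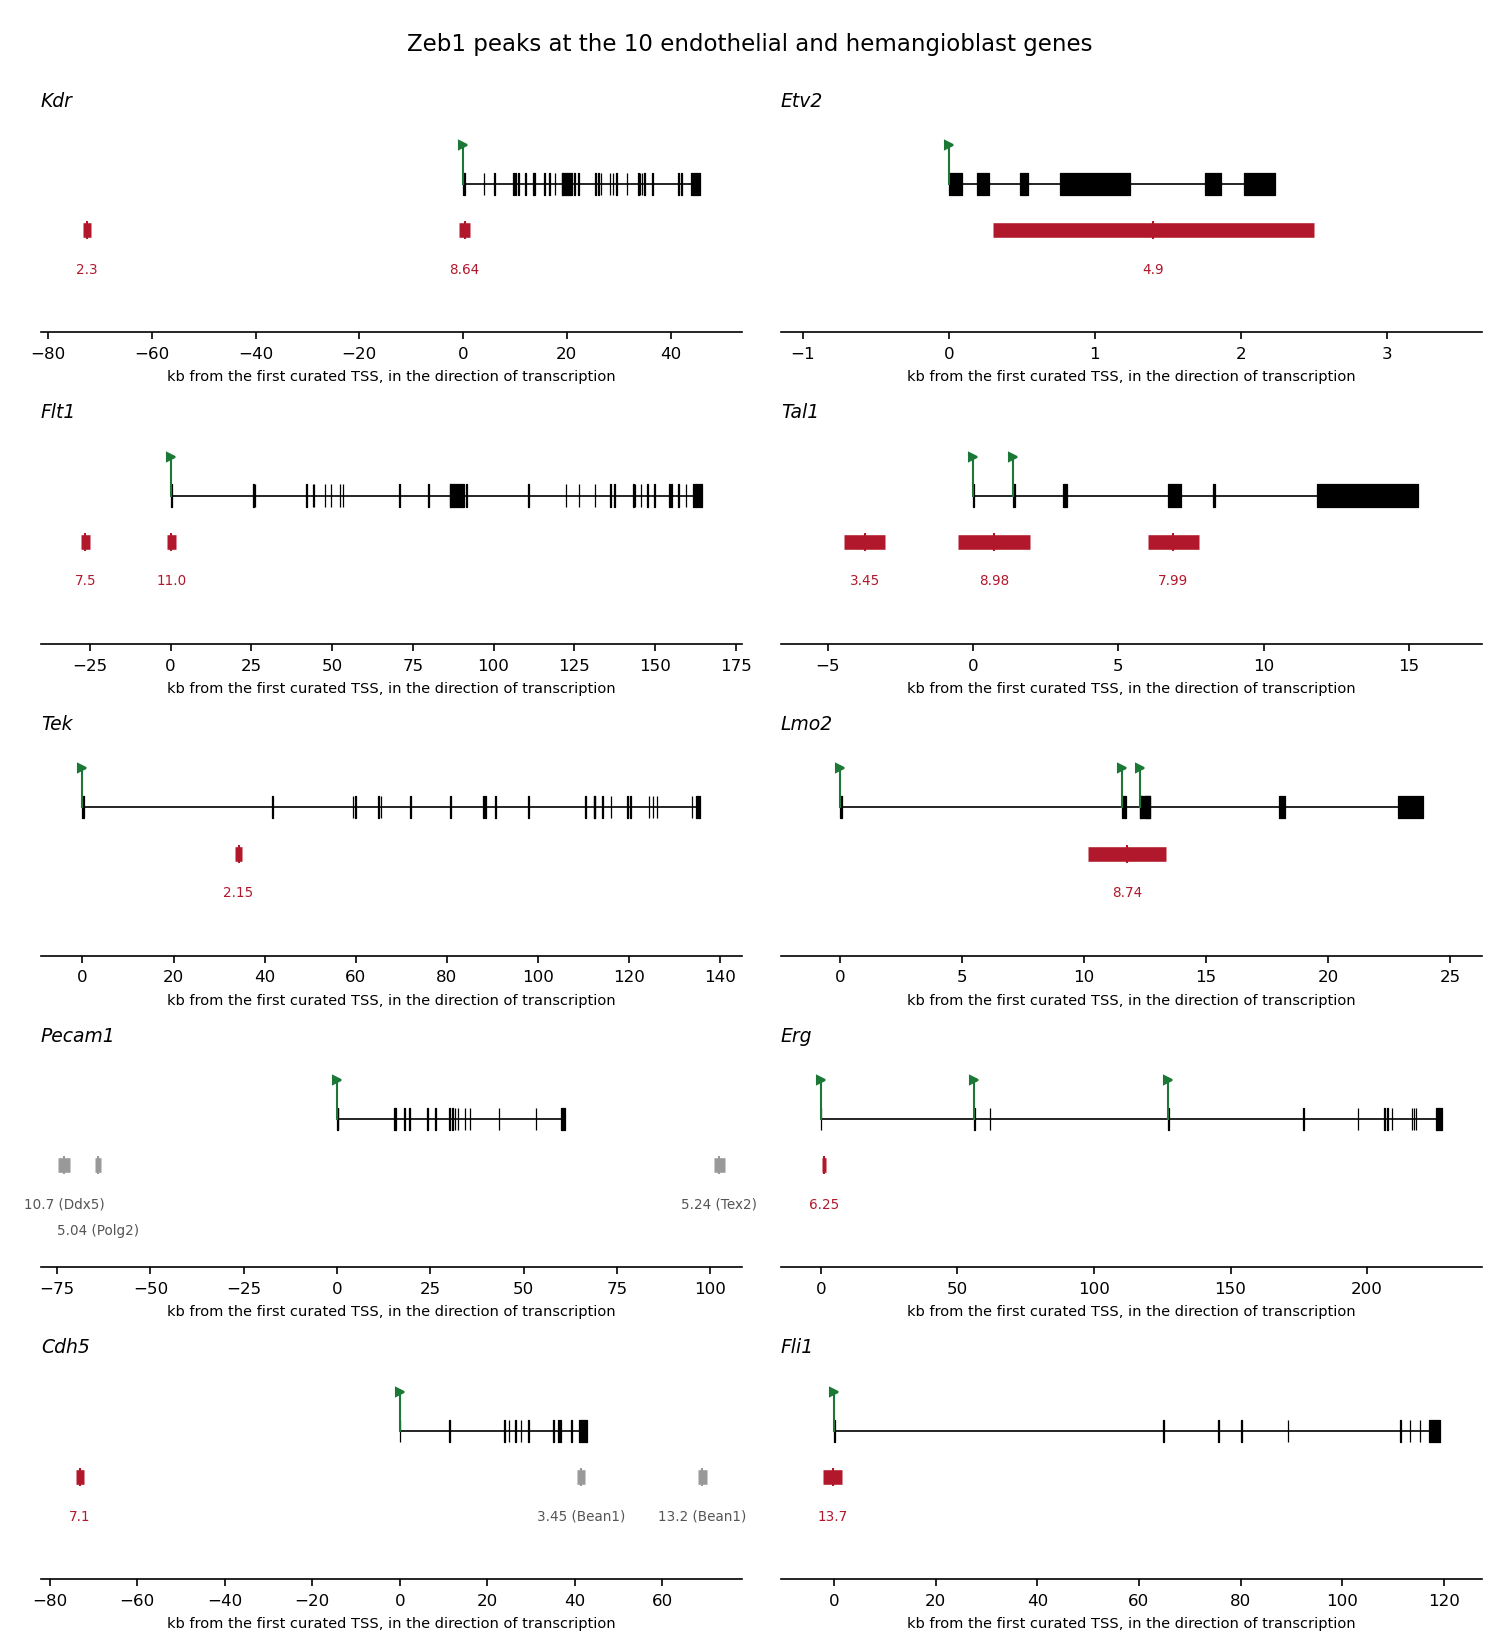
Zeb1 peaks (red bars, with their enrichment over input) at the 10 genes, drawn from left to right in the direction of transcription, with exons of curated RefSeq transcripts in black and curated TSS as green flags. Each panel has its own scale in kb from the first TSS. Gray bars are peaks that the list gives to another gene, named in brackets, and Pecam1 has gray bars alone.

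**Figure D2:**
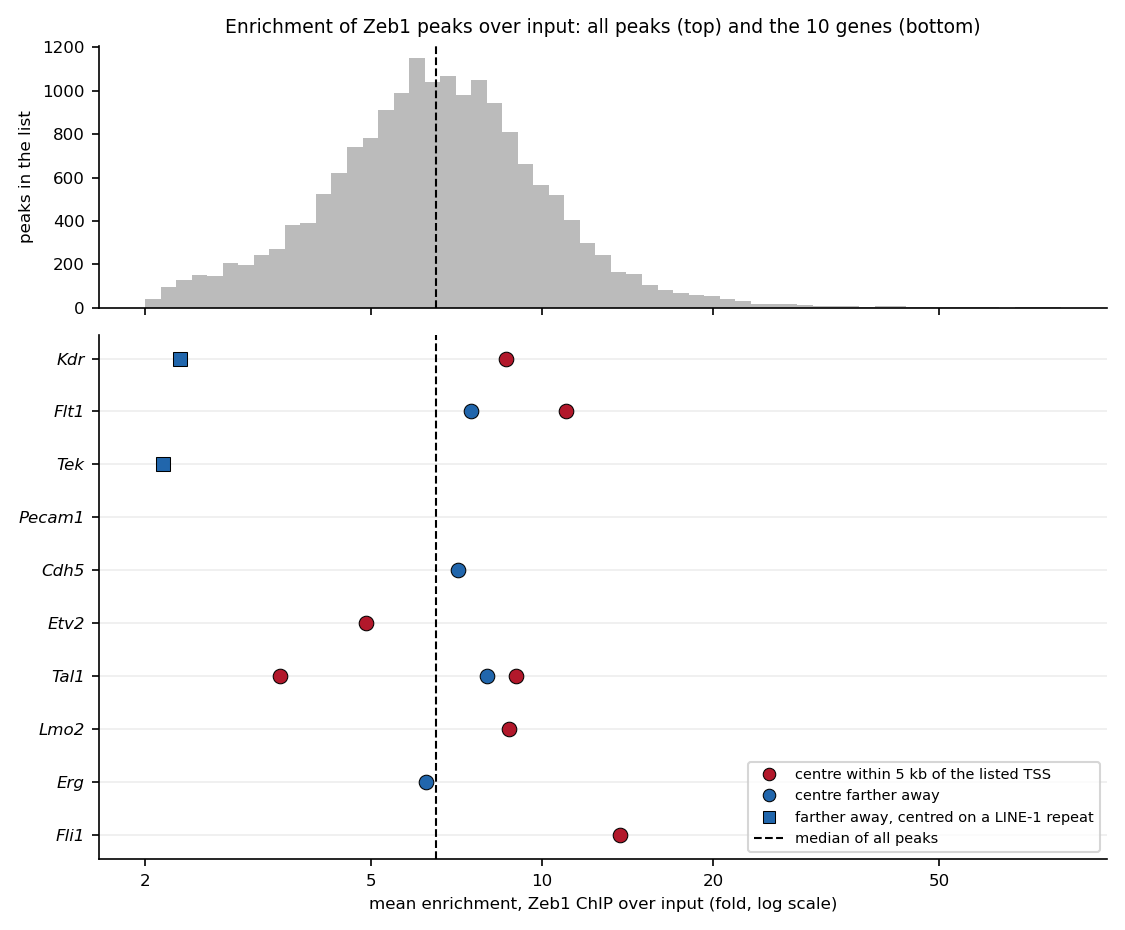
Mean enrichment over input on a log axis, for all 17435 peaks as a histogram (top) and for each peak of the 10 genes as 1 point (bottom). The dashed line is the median of all peaks, 6.5. Red points have their centre within 5 kb of the listed TSS, blue points lie farther away, and the 2 blue squares, at Kdr and Tek, are centred on LINE-1 repeats and have the lowest values, 2.3 and 2.15.

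Among the receptors, both VEGF receptors had a peak over the TSS and the angiopoietin receptor did not. Kdr encodes the main signalling receptor for VEGF and marks the mesoderm from which hemangioblasts arise. Its promoter peak, at chr5:75977101-75979250 in mm10, was 2150 bp long and reached from 795 bp before the TSS to 1354 bp after it, with its centre in the 5′ UTR, in exon 1 of 30. The peak held 54.4 Zeb1 ChIP reads against 14 input reads, an enrichment of 8.64, which was higher than in 76.1% of all peaks. The other Kdr peak, at chr5:76050251-76051700, lay 72547 bp upstream of the TSS, outside curated transcripts of Kdr. It had 25.5 Zeb1 ChIP reads against 21 input reads and an enrichment of 2.3, and 0.803% of all peaks were lower.

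The 250 bases before the Kdr TSS lay wholly under its promoter peak. They are printed here, on the minus strand of chr5:75978456-75978705 (RefSeq, GRCm38.p6), because promoters with a Zeb1 peak were richer in CpG. Over the 9327 promoters with a peak in the RefSeq table the median ratio of observed over expected CpG was 0.799, and over the 11161 without a peak it was 0.281. Capitals mark CpG, of which there are 16.
Kdr promoter: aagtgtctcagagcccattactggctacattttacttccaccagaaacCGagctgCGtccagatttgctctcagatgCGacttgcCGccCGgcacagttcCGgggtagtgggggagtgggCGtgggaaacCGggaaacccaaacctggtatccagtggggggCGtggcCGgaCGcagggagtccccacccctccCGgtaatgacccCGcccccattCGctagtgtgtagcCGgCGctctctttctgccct

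Flt1 encodes a VEGF receptor that binds its ligand tightly and limits signalling through Kdr. Its promoter peak, at chr5:147724451-147727100, had the highest read mean of the 13 peaks, 123 Zeb1 ChIP reads against 24.8 input reads. Its enrichment of 11.02 was higher than in 89.8% of all peaks. The peak was 2650 bp long, reached from 1089 bp before the TSS to 1560 bp after it, and was centred in the 5′ UTR, in exon 1 of 30. The other Flt1 peak, at chr5:147751051-147753650, was centred on a simple repeat 26362 bp upstream. It differed from the distal Kdr peak in its values, with 60.5 Zeb1 ChIP reads, 15.8 input reads and an enrichment of 7.5, higher than in 63.4% of all peaks.

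Tek encodes Tie2, the receptor for angiopoietins on endothelial cells. Its only peak, at chr4:94772801-94774350, lay in intron 1 of 22, 34286 bp downstream of the TSS, and no peak overlapped the promoter window. The peak had 25 Zeb1 ChIP reads against 22 input reads and an enrichment of 2.15, with 0.218% of all peaks lower. Like the distal Kdr peak it was centred on a LINE-1 element. Of the 325 peaks of the list with an enrichment under 2.5, 256 (78.8%) were centred on LINE-1 elements, beside 14.2% of all peaks. Most LINE-1 peaks were not that low, since these 256 are 10.3% of the 2483 LINE-1 peaks, whose median enrichment was 5.3 and upper quartile 9.75, beside 6.5 and 8.53 for all peaks. The part of repeats in the values at Kdr and Tek was not tested.

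Neither junction gene of the 10, Pecam1 or Cdh5, had a peak near its TSS. Pecam1 encodes an adhesion molecule at the contacts between endothelial cells and is also found on mESC. No peak carried its name, and none overlapped the gene, at chr11:106654213-106715281, or the 5 kb on either side. The nearest peak upstream was 63.4 kb from the gene and was listed under Polg2, with an enrichment of 5.04. The nearest downstream was 40 kb away and was listed under Tex2, with 5.24. The list holds only regions that passed all filters of the authors, so the reads at Pecam1 are not known from it.

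Cdh5 encodes VE-cadherin, the adhesion protein of endothelial junctions. Its assigned peak, at chr8:104027601-104029400, was intergenic and lay 73125 bp upstream of the TSS. It had 36.5 Zeb1 ChIP reads against 12 input reads, the lowest input mean of the 13 peaks, and an enrichment of 7.1, higher than in 58.4% of all peaks. The peak held 2 matches to the Zeb1 motif (1 of them printed with the motif results). Within the gene there was a weaker peak that the list names under Bean1.

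Among the 5 transcription factors, Etv2, Tal1, Lmo2 and Fli1 had a peak within 5 kb of the listed TSS. Erg had one only near another TSS of the reference. Etv2 is the ETS factor that starts the endothelial and blood program. Its peak, at chr7:30633351-30635550, was centred 1402 bp downstream of the TSS, in intron 4 of 5. It began 302 bp downstream of the TSS, ran past the end of the gene and left the promoter window free. With 39.5 Zeb1 ChIP reads against 18 input reads, its enrichment of 4.9 was the lowest among the best peaks of the 6 genes with a peak within 5 kb, and 24.5% of all peaks were lower. Etv2 lay among many peaks, with 8 peak centres within 100 kb of its TSS, where the median of all protein-coding genes was 2.

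Erg and Fli1 are ETS factors that hold the endothelial identity of cells once it is set. The Erg peak, at chr16:95584801-95586300, was listed 55185 bp upstream of the TSS of a shorter transcript and so did not count as a promoter peak. In the reference it lay in intron 1 of 10 of the transcript with the outermost TSS, with its centre 1043 bp downstream of that transcript's TSS and its edge 293 bp from it. It had 46 Zeb1 ChIP reads against 14 input reads and an enrichment of 6.25, and 46.1% of all peaks were lower. Counting every curated TSS, 7 of the 10 genes had a peak centre within 5 kb. The share of all protein-coding genes by this wider rule was not counted, and the 45.1% given above is for the listed TSS.

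Fli1 had the highest enrichment of the 13 peaks. Its peak, at chr9:32539801-32543650, had its centre 273 bp before the TSS and held 102 Zeb1 ChIP reads against 15.3 input reads. The enrichment of 13.7 was higher than in 95.5% of all peaks. With 3850 bp it was also the longest of the 13 peaks, longer than 94.4% of the list, and reached from 2198 bp before the TSS to 1651 bp after it.

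Tal1 encodes a basic helix-loop-helix factor that directs mesoderm to blood, and it was the gene with the most peaks, 3. The peak at chr4:115055901-115058400 covered both curated TSS of the gene and had an enrichment of 8.98, with 76.6 Zeb1 ChIP reads against 17.2 input reads. The peak at chr4:115062451-115064200, centred in coding exon 3 of 5 and 5514 bp downstream of the nearer TSS, came close to it with 7.99, from 46.4 reads against 12.9. The peak at chr4:115052001-115053400, 3726 bp upstream, was the weakest, with 3.45, from 31 reads against 17.5. Of all peaks, 78.8%, 69.4% and 7.74% had a lower enrichment than these 3.

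The 250 bases before the outer Tal1 TSS lay under the middle peak. They are printed from the plus strand of chr4:115056176-115056425 (RefSeq, GRCm38.p6), for comparison with those of Etv2, which its peak left free, on the minus strand of chr7:30635853-30636102. Capitals mark CpG, with 6 in Tal1 and 3 in Etv2.
Tal1 promoter: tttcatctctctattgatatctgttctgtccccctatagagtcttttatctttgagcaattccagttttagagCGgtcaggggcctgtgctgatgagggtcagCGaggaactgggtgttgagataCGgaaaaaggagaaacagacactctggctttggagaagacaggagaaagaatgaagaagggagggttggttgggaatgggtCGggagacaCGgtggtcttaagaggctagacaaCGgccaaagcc
Etv2 promoter: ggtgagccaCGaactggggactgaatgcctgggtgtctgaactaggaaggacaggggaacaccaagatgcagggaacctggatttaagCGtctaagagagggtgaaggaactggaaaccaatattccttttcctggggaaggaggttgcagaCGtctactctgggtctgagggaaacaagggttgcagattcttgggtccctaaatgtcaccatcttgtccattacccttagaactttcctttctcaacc

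Lmo2 encodes the bridging protein that joins Tal1 to its partners. Its peak, at chr2:103968151-103971350, was 3200 bp long and covered 2 of the 3 curated TSS of the gene, and its centre lay 193 bp from the nearer of them, in intron 1 of 3 of the transcripts that start before it. It had 63 Zeb1 ChIP reads against 14.4 input reads and an enrichment of 8.74, higher than in 76.9% of all peaks. The outermost Lmo2 TSS had no peak. The best peaks of Kdr, Tal1 and Lmo2 thus had almost the same enrichment, 8.64, 8.98 and 8.74, and whether they differ beyond the spread between libraries could not be measured.

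The plot of Zeb1 ChIP reads against input reads shows both parts of the enrichment. Input reads ranged from 12 at Cdh5 to 24.8 at the Flt1 promoter, and Zeb1 ChIP reads from 25 at Tek to 123 at the Flt1 promoter. The medians of the 13 peaks, 46.4 and 15.8, were close to those of all peaks, 47.4 and 16. Fli1 exceeded Flt1 in enrichment with fewer ChIP reads, and had 15.3 input reads against 24.8. The peaks at Tek and far upstream of Kdr combined low ChIP reads with input reads above those of 76.4% and 73.0% of all peaks. The deposited enrichment is not the plain quotient of both read columns and exceeded it by a median factor of 2.02 in the 13 peaks and 2.07 in all peaks. The factor was not constant, from 1.89 at Tek to 2.33 at Cdh5, and its origin was not tested.

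**Figure D3:**
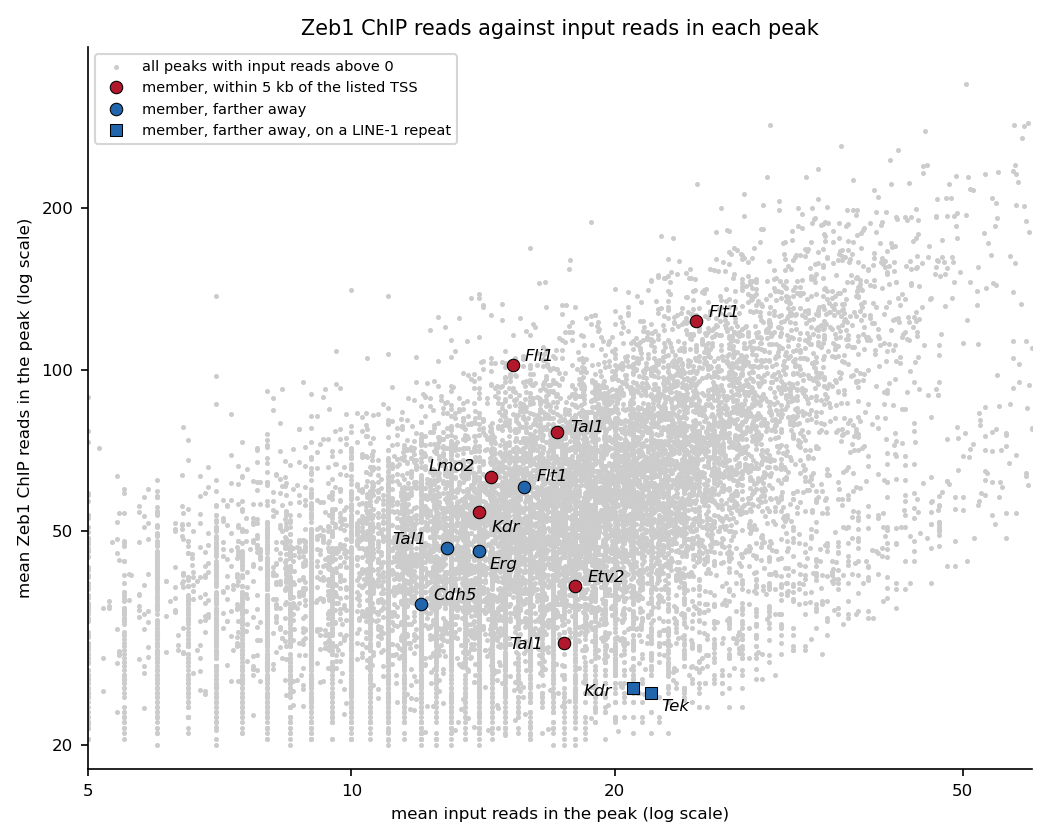
Mean Zeb1 ChIP reads (vertical, log axis) against mean input reads (horizontal, log axis) in each peak. Gray points are the peaks of the list, with those beyond the drawn range left out. Coloured points are the 13 peaks of the 10 genes, red where the centre was within 5 kb of the listed TSS, blue where it lay farther away, and square on LINE-1 elements. Fli1 and the Flt1 promoter stand highest, and Tek and the distal Kdr peak lowest.

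The sequence of each peak was searched on both strands for the Zeb1 motif, 8 bases in 4 spellings, CNCACCTG, CNTACCTG, TNCACCTG and TNTACCTG. The core CACCTG was searched by itself and overlaps the first and the third spelling. The motif was found in 10 of the 13 peaks (76.9%) and in 76.8% of all peaks, and the core in 11 (84.6%) and in 82.1%. The peaks without the motif were those at Fli1, at Tek and far upstream of Kdr. Among peaks within 100 bp of the same length, the motif was present in 94.3% for Fli1, 69.8% for Tek and 69.1% for the distal Kdr peak. The Fli1 peak, highest in enrichment, also lacked the core in all of its 3850 bp. The absence says only that these letters are not in the peak.

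The 10 peaks held 16 matches. The spelling TNCACCTG accounted for 8, CNCACCTG for 4, CNTACCTG for 3 and TNTACCTG for 1. The Lmo2 peak had 3 matches, all in introns between 496 and 902 bp downstream of the nearest TSS. No match to the 8-base motif fell in the 200 bp at the centre of any of the 13 peaks, where 16.6% of all peaks had one. The core by itself was there in 1 peak, at Lmo2, 28 bp from the centre, and in 21.8% of all peaks. The nearest match to the 8-base motif was at Flt1, 105 bp from the centre, followed by Erg at 163 bp and the exonic Tal1 peak at 253 bp.

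Those 3 nearest matches, and the matches in the peaks at Etv2, upstream of Cdh5 and at the Tal1 start, are printed with 26 bases on either side, on the strand that carries the motif, and capitals mark the motif. They lie on chr5:147725640-147725699 (Flt1, plus strand, across the end of exon 1), chr16:95585683-95585742 (Erg, minus strand, intron 1), chr4:115063548-115063607 (Tal1, minus strand, across the end of exon 3), chr7:30633620-30633679 (Etv2, plus strand, exon 6 of 6), chr8:104027830-104027889 (Cdh5, plus strand, intergenic) and chr4:115055923-115055982 (Tal1, plus strand, 473 bp upstream of the nearest TSS), all in GRCm38.p6.
Flt1 match: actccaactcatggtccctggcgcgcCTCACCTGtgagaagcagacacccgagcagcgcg
Erg match: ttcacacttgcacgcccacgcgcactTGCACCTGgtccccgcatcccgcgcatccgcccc
Tal1 exonic peak match: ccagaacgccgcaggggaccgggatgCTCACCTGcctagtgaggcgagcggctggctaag
Etv2 match: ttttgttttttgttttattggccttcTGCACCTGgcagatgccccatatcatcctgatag
Cdh5 match: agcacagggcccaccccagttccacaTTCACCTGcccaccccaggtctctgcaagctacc
Tal1 start match: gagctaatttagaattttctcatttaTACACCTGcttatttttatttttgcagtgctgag

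Promoter sequence was read for Kdr, Flt1, Tek, Etv2, Tal1 and Erg, with 9 promoter windows of 300 bases between them. Pecam1, Cdh5, Lmo2 and Fli1 were not in the promoter table. With 6 of the 10 genes read, too few had a value for a check of base composition over the whole group, which is void, and values are given for single genes. In all 20488 promoters of the table, a window with an observed over expected CpG ratio of 0.6 or more overlapped a Zeb1 peak in 74.9% of cases, and a window with a lower ratio in 17.2%. Kdr, with a ratio of 0.689, Flt1, with 0.780, and both Tal1 windows, with 0.647 and 0.758, were on the CpG-rich side and had a peak. Tek, with 0.149, and Etv2, with 0.266, were on the other side and had none over the window. Erg departed from this order. Its outer window, next to the peak, had the highest ratio, 0.941, and no peak over it, so that 4 of the 6 genes had a CpG-rich window and 3 of these a peak over it. Counted by windows, 5 of the 9 (55.6%) were CpG-rich, beside 49.1% of all promoters in the table. Over 1000 bp around the outer Erg TSS the ratio was 0.448. The inner windows of Erg had 0.191 and 0.275.

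The Zeb1 motif was in 15.7% of all promoter windows of the table and the core in 19.6%. Of the 9 windows of the 6 genes, the motif was in 2, both at inner TSS of Erg, and the core in 1 of these. The windows of Kdr, Flt1 and Tal1, all under a peak, held neither.

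The genes around these 10 in the same pathways were taken from lists by role. The lists, like the 10 genes, were chosen with earlier results of these data known. Of 71 genes in 7 lists, 53 (74.6%) had an assigned peak, beside the 53.3% of all protein-coding genes, and of the 61 genes outside the 10, 44 (72.1%) had one. The lists differed in this share, as the plot of best peaks by role shows. All 12 arterial, venous and Notch genes had an assigned peak, from 2.15 at Hey2, a Notch target, to 15.4 at Nr2f2, which gives veins their identity. Of the 12 hemangioblast and blood factors, 10 had an assigned peak, and Gata1 and Gfi1b, both factors of red cell and platelet precursors, had none. In this list Runx1, needed for blood stem cells to emerge, had the highest best peak with 14.4, and Nfe2 the lowest with 4.8. Of the 8 ETS factors, 7 had an assigned peak and Elf1 had none, and Fli1 and Etv2 were the highest and the lowest.

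In the other 4 lists the share with an assigned peak lay between 57.1% and 66.7%, beside the 53.3% of all protein-coding genes. These lists hold 7 to 12 genes each, so shares this close to 53.3% are not read as a difference. Of the 12 receptors, 8 had an assigned peak and Tie1, Eng, Aplnr and Robo4 had none. Flt1 was the highest and Tek the lowest of them. Of the 8 ligands, 5 had an assigned peak, with Apln, the ligand of the apelin receptor, at 18.8 and Vegfb at 4.85. Figf and both angiopoietins, Angpt1 and Angpt2, had none. Of the 12 junction and surface genes, 7 had an assigned peak, and Pecam1, Esam, Icam2, Cd34 and Nos3 had none. As at Pecam1, reads that fell short of the authors' filters cannot be seen at these genes. The best peaks of this list ran from 4 at Ptprb to 7.6 at Emcn, with a median of 4.75, and 3 of the 12 genes had a peak within 5 kb of the TSS, beside 45.1% of protein-coding genes. Over all 71 genes 45 had such a peak, and the median best peak was 7.25. The medians of the other lists lay between 6.38 and 9.34. Of the 7 early blood cell markers, 4 had an assigned peak, from 4.7 at Itga2b to 12.9 at Kit, the stem cell factor receptor, and Ptprc, Spi1 and Hbb-bh1 had none. The differences between lists were not tested.

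Of the 18 pathway genes without an assigned peak, 4 had a peak over the gene that the list names under another gene. The peak over Elf1, with an enrichment of 8.16, was listed under Wbp4, that over Eng, with 6.3, under Mir8093, and that over Icam2, with 4.65, under 2310007L24Rik. Spi1 was overlapped by a peak of 7.05 listed under Slc39a13 and a peak of 5.15 listed under Mybpc3. The other 14 genes had no listed peak over the gene, and reads there below the authors' filters cannot be seen. By overlap 54 of the 71 genes had a peak, beside 54.4% of all protein-coding genes (11428 of 21000).

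**Figure D4:**
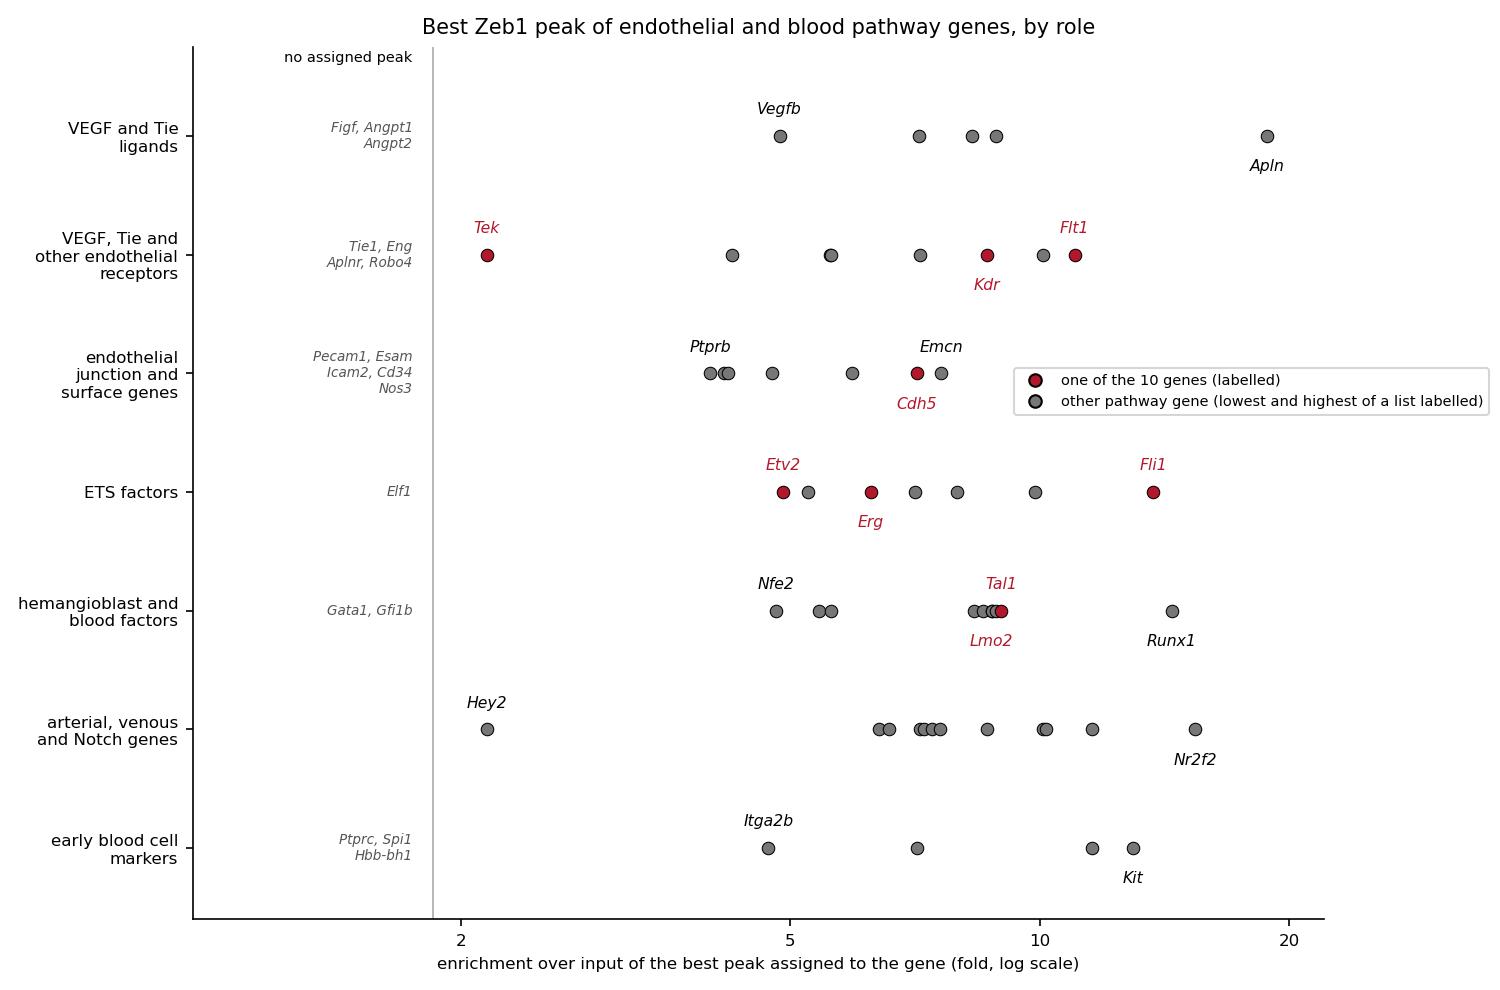
Enrichment over input of the best peak assigned to each gene (log axis), for 71 genes in 7 lists by role, 1 point for each gene with an assigned peak. Red points are the 10 genes described here, and names at the left are genes with no assigned peak. The arterial, venous and Notch list has none without an assigned peak, and the junction and surface list has 5.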

How the data were processed

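Zeb1 ChIP-seq in mESC gave 3 Zeb1 ChIP libraries and 1 input library, grouped by the sample labels. The authors sampled every library to 30 M reads, mapped these to mm10 (STAR 2.4.2a), dropped duplicates (Picard 1.136) and called broad peaks against the input (PeakRanger). Peaks needed 20 treatment reads, a 2-fold enrichment and an FDR limit, had to lie outside blacklisted regions and recur in at least 2 libraries, and were annotated with HOMER 4.7. In the deposited list the coverage of a peak is a signal, its reads averaged by the authors for treatment and for input. The enrichment is a ratio of treatment over input that the authors normalized for mapped reads. The deposited p-value was 0 in all 17435 peaks and was not used. The aligned depth is not known from the list, and with 1 mean per peak no comparison could be tested.

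Peaks were matched to the 10 genes by the gene name in the list. Gene structures, TSS and sequence came from RefSeq GRCm38.p6, the assembly of mm10, with 45756 curated transcripts. Read with positive values as downstream of the TSS, the listed distances were within 2 bp of the reference in 14173 of 17145 peaks, and read with the opposite sign in 29, so positive was taken as downstream, against the legend of the table. Among the 13 peaks of the 10 genes all had the same sign as in the reference, and 9 were within 2 bp. The share of peaks with lower values was counted over the whole list. Motif searches were tested on simulated sequence. Text names all 10 genes and, of each pathway list, the genes with the highest and the lowest best peak and those without an assigned peak. The members and lists were chosen with earlier results of these data known. Alternatives were other limits on enrichment and distance, other assignments of peaks to genes, and other motif and CpG settings. The computation used Python 3.11.15, NumPy 2.4.6, pandas 2.3.3, pysam 0.24.0 and Matplotlib 3.10.9. RNA-seq and ChIP followed by PCR were not analysed here.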

Additional observations from a re-analysis of the deposited data

Results flagged for a closer look

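A peak inside Cdh5 was not counted among the 13, because the list names it under Bean1, the next gene downstream. It lay at chr8:104142001-104144000, in the 3′ UTR of Cdh5 (exon 12 of 12), 41.4 kb downstream of the Cdh5 TSS and 27513 bp from the listed TSS of Bean1. Its enrichment over input was 3.45, from 35 Zeb1 ChIP reads against 19.5 input reads, and 7.74% of all peaks were lower. There were no separate control libraries to set it against beyond the input in that ratio. By overlap with the gene Cdh5 has this peak, and by the gene name in the list it has the stronger one far upstream.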

How the results depend on the processing

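Of 23 alternatives, 21 left the count or median within 1.5 times of the value reported. The others were a limit of 10 on enrichment and the search of the 200 bp at the peak centre. The limit of 10 left 2 of the 10 genes with a peak in place of 9, beside 9.95% of protein-coding genes. The search at the centre left 0 peaks with the motif in place of 10, beside 16.6% of all peaks. Both choices are narrower than the main one, and why no match lay at a centre was not tested. With enrichment of at least 5, 7 genes and 9 peaks were left. The genes with a peak near the TSS numbered 5 at 1 kb, 6 at 10 kb and 7 with any reference TSS. For an enrichment of at least 5, for these distances and without LINE-1 peaks, the share of all protein-coding genes was not counted. The pathway genes with a peak numbered 42 with enrichment of at least 5 and 45 within 5 kb, in place of 53. Within 5 kb of the listed TSS the share of all protein-coding genes was 45.1%. The genes with a CpG-rich promoter window numbered 3 with a ratio of at least 0.75 and 3 over 1000 bp, in place of 4. Of 3 alternatives chosen after seeing the data, leaving out peaks on LINE-1 elements gave 8 genes with a peak and a median enrichment of 7.99, and counting peaks over the genes with 5 kb on either side gave 11 peaks. No paired analysis was possible because the result comes from no test and the list holds no values for separate libraries. Leaving out each library in turn was not run for the same reason. Reads that fell short of the limits of the list cannot be seen in it.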

Other observations

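Peaks listed under other genes lay beyond several of the 10 genes, and those given here were picked after their values were seen. Downstream of Kdr the nearest peak was 356 kb away and was listed under Kit, with 153 Zeb1 ChIP reads against 26 input reads and an enrichment of 12.9. Upstream of Erg, the nearest was 114.7 kb away and listed under Ets2, with 7.07, and upstream of Fli1 it was 128.2 kb away and listed under Ets1, with 4.54. Erg and Ets2, and Fli1 and Ets1, are neighbouring pairs of ETS genes. Downstream of Cdh5 a peak listed under Bean1, 25.2 kb from the gene, had an enrichment of 13.2 from 48.6 Zeb1 ChIP reads and 7.8 input reads.

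Of the 16 motif matches in the 13 peaks, 2 spanned the border of an exon and an intron, at exon 1 of Flt1 and exon 3 of Tal1. Over all peaks this held for 4886 of 32824 matches, 14.9%. A curated TSS of any gene lay in 55.9% of all peaks and in 5 of the 13 peaks.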
